A study of Mus musculus with 12 samples.

Results

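Brain endothelial cells line the capillaries and form the blood-brain barrier. Tight and adherens junctions seal the cells to each other, transporters at their surface move nutrients in and drugs out, and the receptors for VEGF and for the angiopoietins govern the growth and stability of the vessels. The genes described here are 10 markers of this cell type, out of 20504 genes in the CDS table and 23352 in the exon table. The list was fixed by name and not by a cut on values, though with earlier results of these data known. They are the junction genes Cldn5, Cdh5 and Pecam1, the VEGF receptors Flt1 and Kdr, the angiopoietin receptor Tek and its relative Tie1, the transporters Abcb1a and Slco1a4, and the secreted protein gene Egfl7. All 10 were present in both tables.

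The libraries came from 6 adult mice, 3 months old, of the Camk2a-RiboTag cross. In these mice Cre under the Camk2a promoter, active in principal excitatory neurons of the forebrain, switches on an HA-tagged copy of the ribosomal protein Rpl22, so that anti-HA immunoprecipitation (IP) of polysomes is directed at ribosomes of those neurons and not at those of endothelium. From mice E and F, untreated by their labels, 1 RNA-Seq library was made of the brain homogenate (input) and 1 of the IP. Mice A and B received the Captisol vehicle by gavage according to the methods, though their labels read untreated. Mice C and D were given a single oral dose of 100 mg/kg AZD-8055, which blocks the kinase mTOR at its ATP site. The right frontal lobe of mice A to D was taken 1 h later and gave a poly(A)-selected RNA-Seq library and a ribosome footprint library each. The cross itself was shared by all 6 mice. Counts on exons came to between 16796999 and 27878212 per RNA-Seq library, counts on CDS to between 9309496 and 15585831, and footprints on CDS to between 3503873 and 9259938. Counts of the 2 mice of a group were further apart than sampling noise, at a chi-square of 2.74 to 18.2 for each degree of freedom.

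Positions are those of GRCm38 (mm10), as annotated by RefSeq. Egfl7 (chr2:26581083-26592682) has 3 annotated starts with a promoter window and carries the microRNA miR-126 within its span, whereas Cldn5 (chr16:18776847-18778262), Flt1 (chr5:147561604-147726438), Kdr (chr5:75932827-75979072), Tek (chr4:94739086-94874976), Tie1 (chr4:118471191-118489849), Abcb1a (chr5:8567091-8748575) and Slco1a4 (chr6:141805438-141856284) have 1 window each. The mature miR-126a-3p is printed because its host, Egfl7, is the member that behaved differently from the rest. It was not measured as a mature microRNA in these libraries. Its seed, bases 2 to 8, is in capitals, and it lies at chr2:26591402-26591423 on the plus strand.
mmu-miR-126a-3p: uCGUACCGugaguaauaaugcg

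ETS factors such as Erg and Fli1 are known to drive endothelial genes through a GGAA core. The letters GGAAG, or their reverse complement CTTCC, were looked for on both strands in the 300 bases from 250 before to 50 after each annotated start. They were present in 7 of the 10 windows of the 8 members that had one, against 71.4% of all 32851 windows, so that the members' share was that of promoters in general. The match nearest to the start is printed in capitals for 4 members, to show the letters in both orientations. They are read along the gene's strand, which is plus for Egfl7 (chr2:26581022-26581050) and minus for Flt1 (chr5:147726047-147726075), Kdr (chr5:75978655-75978683) and Tie1 (chr4:118489850-118489878).
Egfl7, first annotated start: tgctggtctttcCTTCCtgaggtgcagct
Flt1: ggtgccggggtaGGAAGtgggctggggaa
Kdr: ggctacattttaCTTCCaccagaaaccga
Tie1: caggcgacaactCTTCCcaccctctctcc

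The IP of polysomes from Camk2a-expressing neurons was depleted of 9 of the 10 endothelial genes and enriched in Egfl7. Summed over the 9, exon counts scaled to the library's total (CPM) fell from 292 in the input of mouse E to 11.2 in its IP, and from 343 to 21.7 in mouse F. Egfl7 went the other way, from 25.4 to 46.6 CPM in mouse E and from 26.6 to 48.5 CPM in mouse F. Within the counts of all 10 genes its share rose from 7.99% to 80.7% in mouse E and from 7.18% to 69.1% in mouse F. Counts were tested with edgeR's quasi-likelihood test wherever a gene averaged 37 counts or more over the libraries, and it was called at an adjusted p under 0.05 and a fold change over 2. By this rule 21.8% of the 13254 genes tested were lower in the IP and 11.7% were higher. The median log2 ratio of IP to input of the 10 members was −3.86, against 0.081 for all genes.

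**Figure D1:**
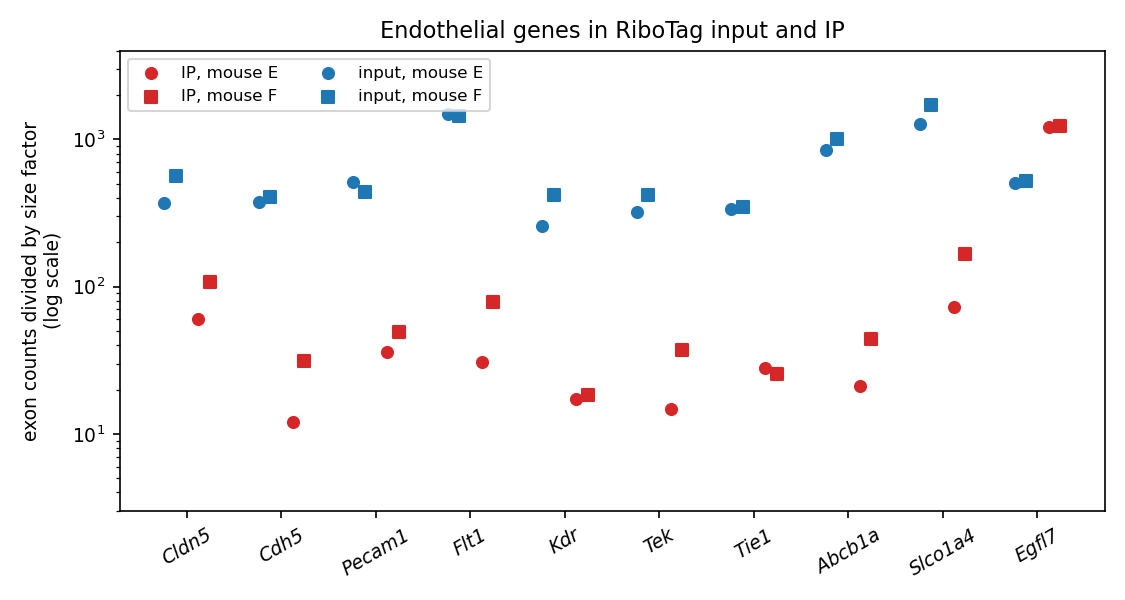
Exon counts divided by the library's size factor (log axis) for the 10 endothelial genes in the RiboTag input (blue) and IP (red) of mouse E (circles) and mouse F (squares). The IP points lie below both input points for 9 genes, whereas those of Egfl7, at 1222 and 1243, lie above its inputs at 504 and 522.

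Among the junction genes, Cldn5, the main tight junction claudin of brain endothelium, had exon counts of 410 and 801 in the inputs of mice E and F and 45 and 93 in their IPs. It was the least depleted of the 9, with 16.1% of the input level left in mouse E and 19.0% in mouse F after division by size factors (log2 change −2.59 ± 0.32 SE, adjusted p = 0.000637, edgeR). Cdh5 (chr8:104101613-104144504), the VE-cadherin of adherens junctions, had counts of 416 and 575 in the inputs against 9 and 27 in the IPs. The level left was 3.17% and 7.69% (log2 change −4.26 ± 0.34 SE, adjusted p = 0.00014, edgeR). Pecam1 (chr11:106654213-106715281), the adhesion molecule CD31, which blood cells and platelets also carry, had 568 and 621 in the inputs against 27 and 43 in the IPs (log2 change −3.58 ± 0.22 SE, adjusted p = 7.51e-05, edgeR). For each of these genes both IPs lay below both inputs.

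Both VEGF receptors were among the most depleted members. Flt1, which binds VEGF and acts largely as a decoy, had exon counts of 1640 and 2041 in the inputs against 23 and 68 in the IPs, a 28.5-fold reduction (log2 change −4.83 ± 0.32 SE, adjusted p = 8.47e-05, edgeR). Kdr, the main signalling receptor for VEGF, had 285 and 592 in the inputs against 13 and 16 in the IPs, a 20.4-fold reduction (log2 change −4.35 ± 0.33 SE, adjusted p = 0.000118, edgeR). Of Flt1, 2.06% was left in the IP of mouse E and 5.46% in that of mouse F, a wider spread between mice than for Kdr, at 6.69% and 4.43%. Tek, the angiopoietin receptor Tie2, had 356 and 591 in the inputs against 11 and 32 in the IPs (log2 change −3.93 ± 0.37 SE, adjusted p = 0.000224, edgeR). Tie1, its orphan relative, had 370 and 493 against 21 and 22 (log2 change −3.79 ± 0.20 SE, adjusted p = 6.17e-05, edgeR). Neither receptor's IP counts came near its inputs.

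Abcb1a encodes P-glycoprotein, the efflux pump that keeps many drugs out of the brain. Its exon counts were 939 and 1430 in the inputs against 16 and 38 in the IPs, a 30.3-fold reduction (log2 change −4.92 ± 0.27 SE, adjusted p = 6.7e-05, edgeR). This was the lowest log2 value on exon counts of both mice, whereas Flt1 was lower on CDS counts (−5.35 against −4.97) and without mouse F (−5.75 against −5.46). Slco1a4, an organic anion transporter, had 1408 and 2430 in the inputs against 55 and 144 in the IPs (log2 change −3.74 ± 0.34 SE, adjusted p = 0.000208, edgeR). Abcb1a has a near copy, Abcb1b, whose counts were 94 and 113 in the inputs against 24 and 38 in the IPs. The paper reports uniquely mapped reads, so reads that fit both genes equally well would enter neither count. The relatives Slco1a1, Slco1a5 and Slco1a6 held at most 4 counts in any RNA-Seq library. The span of Abcb1a also overlaps those of Rundc3b and of a long noncoding RNA, and those of Flt1, Kdr and Cdh5 each overlap a long noncoding RNA. Where exons coincide, a kit that does not mark strand cannot separate such genes, and overlap of exons was not checked.

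Egfl7 encodes a secreted protein with EGF-like domains that endothelial cells release into their matrix. Its exon counts were 555 in the input of mouse E and 741 in that of mouse F, and 918 and 1078 in the IPs, although the IP libraries held fewer counts in all. After division by size factors the IP level was 242% of the input in mouse E and 238% in mouse F, so both mice agree closely (log2 ratio 1.26 ± 0.018 SD, n = 2). By edgeR the log2 change was 1.15 ± 0.099 SE (adjusted p = 0.00017), higher than in 91.6% of all genes tested. On CDS counts alone the change was larger, at 1.66. Under scaling to total counts, which places the median log2 ratio of all genes at −0.31, it was 0.87 with an adjusted p of 0.000455 by edgeR, short of the fold limit. The exon to CDS ratio of all genes was higher in the IPs, with a median of 1.78 for mouse E, against 1.47 before IP, and of 1.89 for mouse F. For Egfl7 it stayed at 1.17 in both inputs against 1.11 and 1.15 in the IPs. The neighbouring gene Agpat2 begins 374 bases past the end of Egfl7 and held 0 to 34 CDS counts per library. The entry for Mir126 held 7 and 4 exon counts in the inputs and 0 in both IPs. The IP values of Egfl7 thus went against its label as an endothelial marker, while the other 9 members followed it.

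The direction of every member was the same on CDS counts, where log2 ratios of IP to input ran from −5.86 for Flt1 to −2.21 for Cldn5 in mouse E and from −4.81 to −2.61 for the same genes in mouse F, with Egfl7 at 1.78 and 1.80. More was left in the IP of mouse F than of mouse E for 7 of the 9 depleted members on exon counts, Kdr and Tie1 being the exceptions. In the same libraries the 10 microglial genes summed to 43.8 CPM in the IP of mouse E and 45.6 in that of mouse F. Astrocyte genes summed to 776 and 874 CPM in these IPs, and pericyte and smooth muscle genes to 22.7 and 26.4. Endothelial transcription factors, at 41.3 and 34.3, and inhibitory neuron genes, at 233 and 198, were among those lower in mouse F.

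Other vascular genes tested mostly fell as well, and none of them was called higher in the IP. All 14 endothelial transcription factors tested were lower, with a median log2 change of −2.82, and they ranged from Sox17 (−4.05) to Tal1 (−1.29). Among genes of junctions and adhesion, 11 of 14 were lower (median −2.32), with Vcam1 lowest at −3.77 and Cd34 highest at 0.68. Of 15 other transporters of the blood-brain barrier, 10 were lower (median −2.19). The lowest was Slc16a4, a monocarboxylate transporter family member, at −5.73, and the highest was Slc3a2 at −0.21. Of 24 further endothelial genes, 21 were lower (median −2.33), from Vwf, the clotting factor carrier of endothelial granules, at −4.70 to Bsg at 0.96. Ligands and co-receptors of the VEGF and angiopoietin pathways were mixed. Only 4 of 12 were lower, with a median of −0.13, and they ranged from the phosphatase Ptprb (−3.54) to the ligand Figf (0.95). Cd34, Bsg and Figf, each the highest of its list, thus lay on the side of Egfl7 but did not reach the fold limit. Pgf, Angpt1, Palmd, Cldn12 and Nrp2 also lay above 0, between 0.080 and 0.38.

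The same IPs were depleted of other cell types as well. The median log2 change was −3.34 for 13 genes of pericytes and smooth muscle, −3.20 for 10 microglial genes, −2.99 for 10 oligodendrocyte genes, −2.76 for 8 oligodendrocyte precursor genes, −2.88 for 10 astrocyte genes and −1.99 for 9 genes of inhibitory neurons. It was 0.65 for 10 genes of excitatory neurons, of which 3 were called higher. The change of Egfl7 lay within the range of the excitatory neuron genes, which ran from −0.54 to 2.09 for Nrgn. That range also takes in the median of all genes tested, −0.034, and expression of Egfl7 in neurons was not tested.

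**Figure D2:**
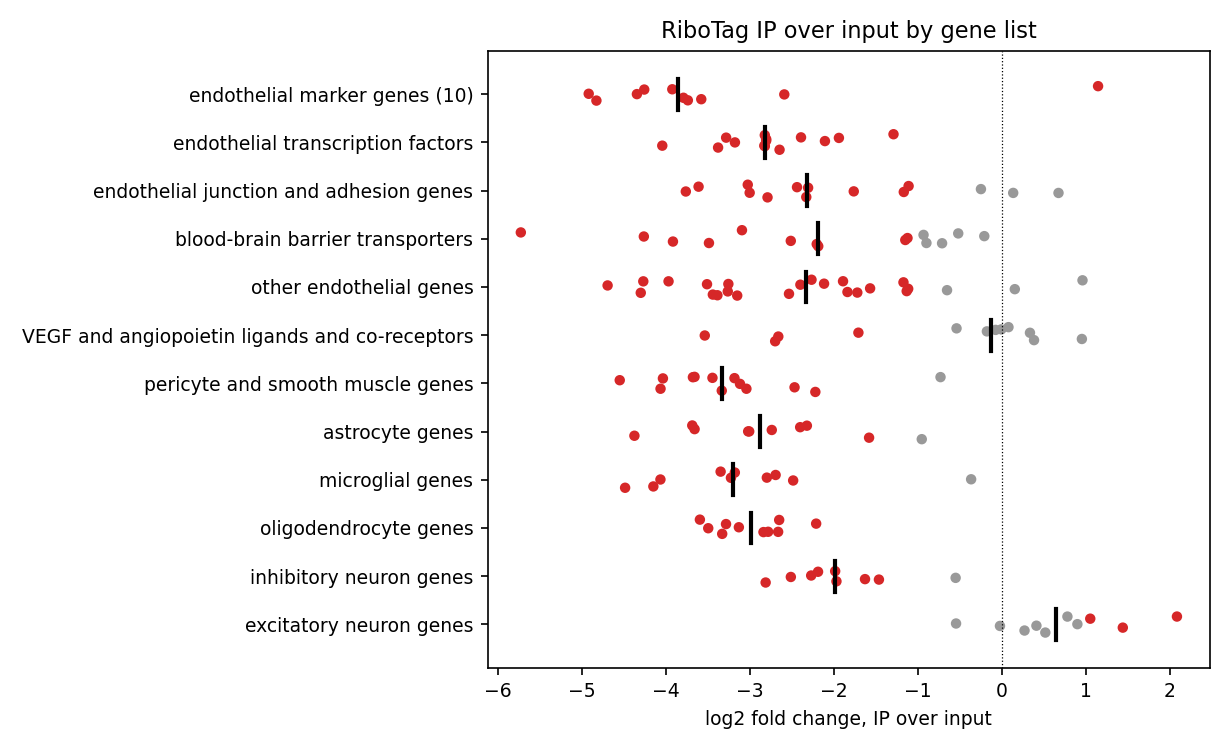
Log2 fold change of IP over input for each tested gene (points) of the 10 endothelial markers and of lists of other vascular and brain cell types, red where called and grey otherwise, with the median of each list as a bar. Egfl7 at 1.15 is the single marker to the right of 0, and the medians of the endothelial and glial lists other than VEGF and angiopoietin genes lie between −3.86 and −2.19.

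Whether ribosomes load endothelial mRNAs more or less than other mRNAs was asked in the footprint libraries. Translation efficiency (TE) is the ratio of footprint to RNA counts on CDS, each divided by its size factor, so that the average gene has a log2 TE near 0. In the vehicle-treated mice 9 of the 10 members had a log2 TE below 0, and their median was −0.86 against 0.016 for 10882 genes. At a fold limit of 2 and an adjusted p under 0.05 by edgeR, 3 members were called lower, namely Tie1, Egfl7 and Pecam1, and none was called higher. Of all 11797 genes tested, 17.6% were called lower and 13.2% were called higher. Without the fold limit 7 members were called lower, which adds Cldn5, Tek, Abcb1a and Slco1a4. That rule is loose, since by edgeR 8914 of the 11797 genes had an unadjusted p under 0.05 in either direction. The share of all genes called lower without the limit was not counted. The members' median was −0.54 in mouse A and −1.04 in mouse B.

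The angiopoietin receptor Tek and its relative Tie1 lay apart from the VEGF receptors in TE. Tie1 had 58 and 23 footprints in mice A and B against 202 and 244 RNA counts, and the lowest TE of the members, with a log2 TE of −1.65 and −2.22 (edgeR −1.84 ± 0.21 SE, adjusted p = 1.22e-06). Tek had 75 and 41 footprints against 149 and 190 RNA counts, and its log2 TE was −0.84 and −1.02. Flt1 had 443 and 193 footprints against 509 and 634 RNA counts, with a log2 TE of −0.053 and −0.53 and no call (edgeR −0.23 ± 0.11 SE, adjusted p = 0.0752). Kdr had the highest TE, with 117 and 51 footprints against 98 and 93 RNA counts. Its log2 TE was 0.40 and 0.32, above 66.1% of all genes (edgeR 0.43 ± 0.18 SE, adjusted p = 0.0456, below the fold limit). Both mice thus placed Kdr above Flt1, and Tie1 below Tek.

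Egfl7 had 92 and 52 footprints against 359 and 372 RNA counts. Its log2 TE of −1.82 and −1.65 was close in both mice, and its TE of 0.30 was lower than that of all but 5.23% of genes (edgeR −1.71 ± 0.14 SE, adjusted p = 1.65e-08). The junction genes were spread widely. Pecam1 had 94 and 38 footprints against 232 and 294 RNA counts (log2 TE −1.16 and −1.76, edgeR adjusted p = 4.4e-06). Cdh5 had 145 and 61 against 161 and 187, and its log2 TE of −0.0032 and −0.43 was not called (edgeR adjusted p = 0.445). Cldn5 lay between them, at −0.42 and −0.96. The transporters lay close to each other, Abcb1a at −0.54 and −1.29 and Slco1a4 at −0.54 and −1.07.

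In the order of the mean TE from low to high, Tie1 was followed by Egfl7, Pecam1, Tek, Abcb1a, Slco1a4, Cldn5, Flt1, Cdh5 and Kdr. The values of mice A and B overlapped between each gene and the next in this order, except between Pecam1 and Tek and between Cdh5 and Kdr. For 9 of the members the TE of mouse A exceeded that of mouse B, and Egfl7 was the exception. The footprint library of mouse A held 9259938 counts against 4551357 in mouse B, and the part of this in the offset between the mice was not tested. The median over all genes was 0.028 in mouse A and −0.0087 in mouse B.

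**Figure D3:**
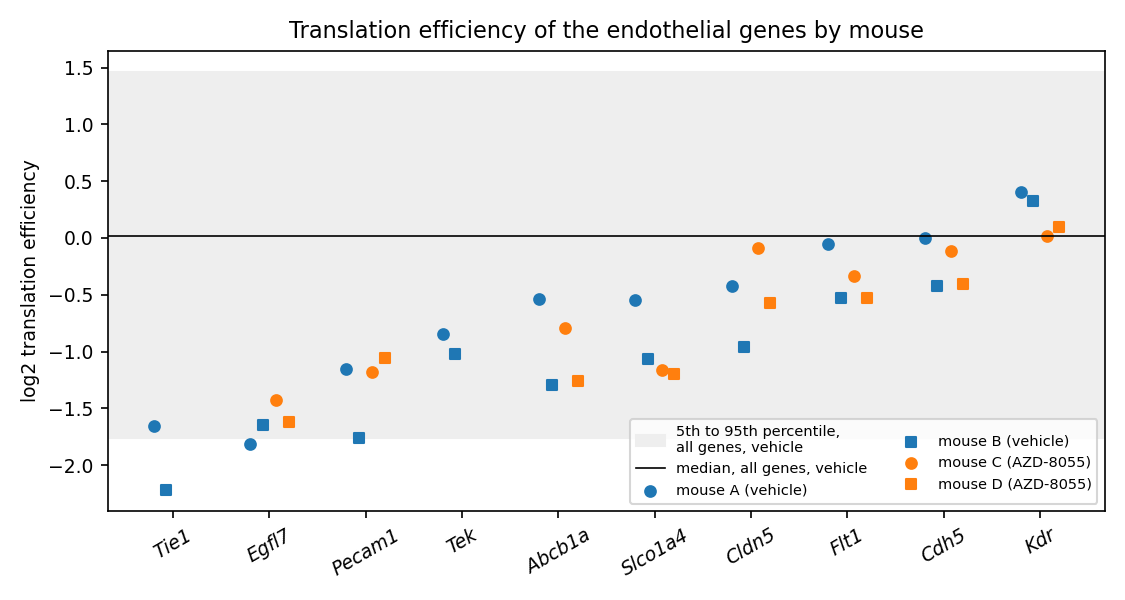
Log2 TE of the endothelial genes in mice A and B (vehicle, blue) and C and D (AZD-8055, orange), ordered by the mean of A and B, with the median of all genes as a line and their 5th to 95th percentile in vehicle mice, −1.76 to 1.46, in grey. Kdr alone lies above the line in both vehicle mice, and values for Tie1 and Tek are shown for A and B only because their footprints in C and D summed to fewer than 75.

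Of the 8 members with enough footprints in the treated mice C and D, Egfl7 had the lowest mean log2 TE, from −1.43 and −1.62, and Kdr the highest, from 0.014 and 0.097, as among the same 8 in mice A and B. The order between them was not the same, since Slco1a4 lay below Pecam1 and Abcb1a, and Flt1 below Cldn5. Tie1, whose footprints were under the limit, stood at −1.61 and −1.35. Pecam1 stood at −1.18 and −1.06, Slco1a4 at −1.17 and −1.20, and Abcb1a at −0.79 and −1.26. Cldn5 (−0.088 and −0.57), Flt1 (−0.34 and −0.53) and Cdh5 (−0.11 and −0.40) lay nearer to 0. Those 7 members other than Kdr were below the median of all genes in each of the 4 mice, and Kdr was below it in 1. The median of the 8 was −0.56 in mouse C and −0.81 in mouse D.

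The TE of vascular genes outside the 10 was tested in the same way. Of 21 further endothelial genes tested 4 were called lower and none higher, with a median of −0.55, and the lowest was Ushbp1 at −2.32. Of the VEGF and angiopoietin genes 4 of 9 were lower and 2 were higher, with a median of −0.71. The extremes were the ligands Vegfb at −3.39 and Angpt1 at 1.66. The junction and adhesion genes had a median of 0.064 (3 of 13 lower, 1 higher), the other transporters one of −0.30 (0 of 13 lower, 3 higher, with the arginine transporter Slc7a1 at 1.85) and the transcription factors one of −0.38 (1 of 6 lower, none higher). Of 11 pericyte and smooth muscle genes 1 was lower, with a median of −0.39. Lists of other brain cells lay higher than the members, with medians of −0.066 for 10 microglial, 0.18 for 10 excitatory neuron, 0.25 for 8 oligodendrocyte precursor, 0.33 for 10 oligodendrocyte, 0.47 for 9 inhibitory neuron and 0.75 for 10 astrocyte genes.

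No change of an endothelial gene in TE, RNA or footprints was detected 1 h after AZD-8055. In TE, 0 of 10 members were called, where 0.305% of the 11797 genes tested were called in either direction. At an unadjusted p under 0.05, 0 members and 796 of all genes passed. With limma-voom 0 members were called in each of the 3 measures. DESeq2 also called 0, but it could not call every member. It gave no adjusted p for Cldn5, Pecam1, Kdr, Tek, Tie1 and Cdh5 in TE, and in footprints it gave one for Flt1 only. The same libraries showed the response of mRNAs with a terminal oligopyrimidine (TOP) tract, the well-known translational targets of mTOR, since 12 of 12 such genes were lower in TE, with a median log2 change of −1.22, and 0 of 12 were called in RNA. The changes in TE of the members ran from −0.37 ± 0.19 SE for Slco1a4 to 0.47 ± 0.33 SE for Tie1, with a median of −0.097. With 2 standard errors on either side, the interval reached −0.84 for Kdr and −0.76 for Slco1a4 at its lower end and 1.13 for Tie1 at its upper end, so that changes of these sizes lie within the intervals.

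In RNA, 0 of 10 members were called, against 0.148% of 12182 genes in either direction. The lowest unadjusted p values were those of Cldn5 and Kdr, and 2 members and 1004 of all genes were under 0.05. Cldn5 had normalised RNA counts of 121 and 158 in the vehicle-treated mice and 111 in both treated mice (log2 change −0.35 ± 0.15 SE, edgeR adjusted p = 0.574). On exon counts its change was −0.18, and it was −0.13 without mouse B. That mouse also stood apart in 5 choroid plexus genes, which summed to 673 exon CPM in its RNA-Seq library against 30.5 in mouse A, 58.1 in mouse C and 39.4 in mouse D, and their part in the value of Cldn5 was not tested. Kdr had normalised counts of 72.6 and 63.8 in the vehicle-treated mice and 91.0 and 88.3 in the treated ones (log2 change 0.37 ± 0.17 SE, edgeR adjusted p = 0.582). Neither of these differences held after adjustment. In bulk samples, fewer cells of a type and less RNA per cell cannot be told apart between mice. The other 8 members changed by −0.10 to 0.17, and Egfl7 by 0.053 ± 0.099 SE.

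In footprints, 0 of the 9 members tested were called, against 1.03% of 10695 genes in either direction, and Tie1 had too few counts for the test. At an unadjusted p under 0.05, 0 members and 1369 of all genes passed. Slco1a4 came closest, with normalised footprints of 234 and 213 in the vehicle-treated mice and 188 and 177 in the treated ones (log2 change −0.29 ± 0.14 SE, edgeR adjusted p = 0.404). Flt1 had normalised footprints of 363 and 302 with vehicle and 372 and 303 with AZD-8055, a log2 change of 0.00094 ± 0.13 SE. Egfl7 had normalised footprints of 75.5 and 81.3 with vehicle against 105 and 86.9 with AZD-8055 (log2 change 0.29 ± 0.22 SE, edgeR adjusted p = 0.603).

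Across the 6 homogenate RNA-Seq libraries, Egfl7 was also the steadiest of the members. It ranged from 24.6 to 26.6 exon CPM, with a median of 25.3, a 1.08-fold range. Kdr varied most, from 8.42 to 21.2 CPM, with mouse F highest and mouse B lowest, a 2.52-fold range. The other 8 members had ranges between 1.36-fold and 1.82-fold. Mouse F was highest for 8 of the 10 genes and mouse E for Pecam1 and Flt1, and mouse A was lowest for 5. The members' mean log2 level, centred on each gene's mean, was 0.32 in mouse F, 0.090 in mouse E and between −0.22 and −0.024 in mice A to D. Mice E and F were also not part of the dosing experiment and gave no footprint libraries, so that mouse and experiment cannot be told apart in this offset.

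The genes whose log2 level followed the members' mean most closely over these 6 libraries were Zfp507, Tnfrsf19, Atp13a5, Smug1, Ccdc142 and Mtdh, with Pearson r between 0.987 and 0.994. Atp13a5 is on the list of pericyte genes, and the others are on none of the lists. This is a description of 6 points out of 13396 genes, of which mouse F is the highest and mouse A the lowest.

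**Figure D4:**
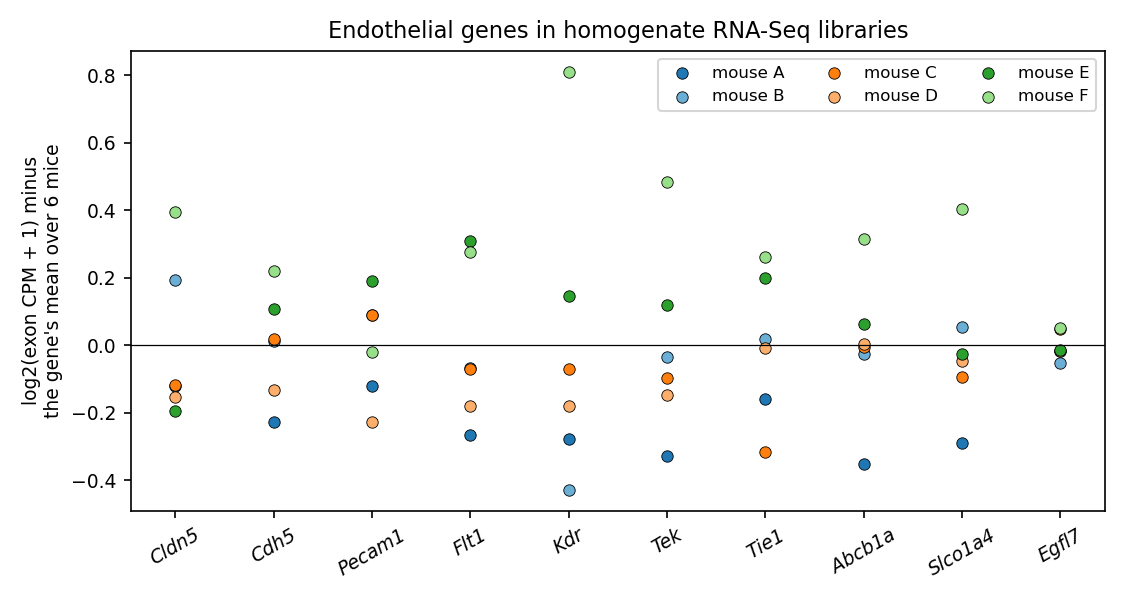
Log2 of exon CPM plus 1 for each endothelial gene in the homogenate libraries of mice A to F, minus the gene's mean over the 6 mice. Points of Egfl7 lie together near 0, while those of the other genes spread, with mouse F highest for 8 of the 10 genes.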

How the data were processed

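The authors deposited raw, whole-number counts for each gene in 2 tables, 1 on CDS (12 libraries) and 1 on exons (8 RNA-Seq libraries). The submitters' processing notes name mm10, Bowtie2, TopHat2 and HTSeq. Footprint reads were trimmed, clipped of poly(A) and cleared of rRNA by the authors, and counted in HTSeq's strict intersection mode. The RNA-Seq kit, TruSeq v2, does not mark strand.

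Counts were tested with edgeR 4.0.16 (TMM, quasi-likelihood, Benjamini-Hochberg) in R 4.3.3, across all genes that averaged 37 counts or more over the libraries. IP and TE calls also needed a fold over 2. The study's RiboDiff was replaced by an interaction term in edgeR. Ratios used DESeq2 1.42.0 size factors. TE needed 75 counts of each kind, summed over 2 mice. Python 3.11.15 and matplotlib 3.10.9 drew the figures. Tests were checked on simulated data, with a spread between libraries taken from these counts. The simulated libraries were not paired by mouse, so the check does not cover the pairing.

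Libraries of one letter come from one mouse. The difference between mice of a group correlated between the paired libraries at 0.563 for E and F, 0.257 for A and B and 0.241 for C and D, across genes. The main fits, which gave the SEs and adjusted p-values of the Results, had no term for the mouse. With 2 mice a group, p-values rest on few animals. All 10 members entered every comparison, except that Tie1 had too few counts for the footprint test, and in the drug comparisons some are covered only by a range. Members of other lists are named as the highest and lowest tested. The members and lists were chosen with earlier results of these data known. Alternatives were DESeq2 and limma-voom (limma 3.58.1), other scalings and count limits, exon or CDS counts, a mouse block, other fold limits, a pseudocount of 1 and leaving out each mouse. Promoter and microRNA sequences are from RefSeq (GRCm38.p6).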

Additional observations from a re-analysis of the deposited data

How the results depend on the processing

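Depletion of 9 members in the IP held under every alternative, including the replicate block (9), CDS counts (9) and each mouse alone (9 and 9). With 1 mouse, the spread between libraries came from the RNA-Seq libraries of mice A to D, and the lone IP and input were assumed to vary like those. The median log2 ratio of IP to input was −4.26 with total counts, where the median of all genes was −0.31 instead of 0.081, and between −4.01 and −3.60 with 1 mouse left out. Egfl7 stayed above input in every alternative, from 0.87 with total counts, where it lost its call for the fold limit, to 1.66. The count of members with low TE was 3 with the replicate block, 4 with total counts and 7 without a fold limit. By edgeR 8914 of all 11797 genes had an unadjusted p under 0.05 for TE in either direction. Without mouse A or B the vehicle group is 1 mouse, assumed to vary like the treated mice, and without C or D the reverse holds, also for the drug comparisons. The fourth member with total counts was Tek, and without mouse A the edgeR log2 TE of Abcb1a was −1.22. The members' median log2 TE ran from −1.02 to −0.54 with a mouse left out, and 4 members remained at 200 counts (−0.55). No member was called after AZD-8055 in any alternative, the paired fit of TE included. DESeq2 gave several members no adjusted p in TE and footprints, so it could not call those. With 2 mice a group and 20 to 443 footprints per member and library, small changes could not be detected.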

Other observations

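Cells that sit on the vessel wall outside the endothelium followed the endothelial genes in the IP. Of 13 pericyte and smooth muscle genes 12 were lower, from Rgs5, a pericyte regulator of G-protein signalling, at a log2 change of −4.55 to the smooth muscle gene Tagln at −0.73, and 5 of 5 perivascular fibroblast genes were lower, with a median of −2.63 (edgeR). In TE the fibroblast genes lay higher, with a median of 0.71 over 4 genes, none of them called. After AZD-8055 no vascular gene outside the 10 was called in RNA, and the largest value was that of Apold1, at a log2 change of 1.37 ± 0.29 SE (edgeR adjusted p = 0.0859).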
